A study of Mus musculus with 2 samples.

Results

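The integrin genes Itga1, Itga2, Itga3, Itga5, Itga6, Itga9, Itgav, Itgb1, Itgb3 and Itgb5 were taken by name, with earlier results of these data known. All 10 were found among the 31055 genes of each count matrix. They were followed through single-cell RNA sequencing of endothelial cells sorted from orthotopic tumors, 1 library from KPC pancreatic tumors and 1 library from PyMT mammary tumors. KPC cells are a mouse pancreatic cancer line, and PyMT cells come from mammary tumors driven by the polyoma middle T antigen. The hosts of both tumors were wild-type female C57BL6 mice, 6 weeks old, and tumors were digested 10 days after 100000 tumor cells were implanted, with more collagenase for KPC than for PyMT tumors. The number of mice behind a library is not stated, neither library has a replicate, and no control tissue was used here. Every interval below therefore covers counting error only, and no difference carries a p-value.

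Integrins are paired surface receptors, each an alpha chain and a beta chain, that anchor cells to the surrounding matrix and signal through the cytoskeleton. The alpha chain largely sets the ligand: the chains encoded by Itga1 and Itga2 bind collagens, those of Itga3 and Itga6 bind laminins, and those of Itga5 and Itgav bind proteins with the RGD motif such as fibronectin and vitronectin. In endothelium, integrins hold the cell layer to its basement membrane, and the αv and α5 chains are best known from sprouting vessels.

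Cells were placed in vessel classes by the summed unique molecular identifiers (UMIs) of a pair of marker genes, none of them an integrin. Of 9591 KPC and 11744 PyMT barcodes kept, the venule class (Ackr1, Selp) held 640 and 360 cells. The artery class (Gja5, Sema3g) held 105 and 126 cells, and the tip class (Apln, Angpt2) held 1302 and 1991 cells. The capillary class (Car4, Cd300lg) held 1297 and 2597 cells. Outside these 4 blood vessel classes stood lymphatic cells (Mmrn1, Prox1; 802 and 633), pericytes (Notch3, Higd1b; 119 and 27), fibroblasts (Col1a1, Col1a2; 443 and 28) and Krt8/Krt18 cells (794 and 379). The remaining 4089 and 5603 barcodes met no rule. Of the kept barcodes, 728 in KPC and 1237 in PyMT met several rules and went to the first, and 162 and 159 had a barcode sequence that occurs in both libraries. Among venule cells, 142 of 640 in KPC and 189 of 360 in PyMT also met the artery, tip or capillary rule.

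Markers that played no part in the rule fit most class names but not all. In KPC, the venule class had 6 of its 7 markers higher than every other blood vessel class, the artery class 7 of 7, the tip class 5 of 7 and the capillary class 7 of 7. In PyMT the same counts were 5, 7, 5 and, for the capillary class, 0 of 7. The summed capillary markers reached 13929 CPM (UMIs per 1000000 UMIs) in the KPC capillary class and 5219 CPM in the PyMT capillary class, so that class is called Car4/Cd300lg cells for PyMT. Where a ratio names capillary cells for both tumors, its PyMT side is these Car4/Cd300lg cells. The summed tip markers were lower in tip than in capillary cells of KPC (3841 against 5378 CPM), and 2481 against 2329 CPM in PyMT. The Krt8/Krt18 cells carried 4558 CPM of epithelial markers in KPC but 40.7 CPM in PyMT. Pericytes also carried endothelial RNA, with pan-endothelial markers at 2857 and 3387 CPM, against 5159 and 2773 CPM of pericyte markers. Cells that met no rule carried 5186 and 3632 CPM of pan-endothelial markers, so they were largely endothelial too. Median depth was 1879 UMIs in the KPC capillary class, against 2485 to 5449.5 in the other KPC blood vessel classes and 3439 to 5845 in those of PyMT.

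Levels below are UMIs of a gene in a class, scaled to CPM by the total UMIs of that class, the KPC value first. A ratio between classes was counted as higher or lower only when it reached 1.5-fold with at least 50 UMIs in both classes together, and the share of all genes that did so is printed beside the integrin count. The levels of different integrins were not ranked against each other. The plot of levels by class shows that Itgb5 separated the stromal and Krt8/Krt18 cells from the endothelium, and that Itga9 was highest in lymphatic and artery cells. Itga1 differed most between the tumors in the capillary class.

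**Figure D1:**
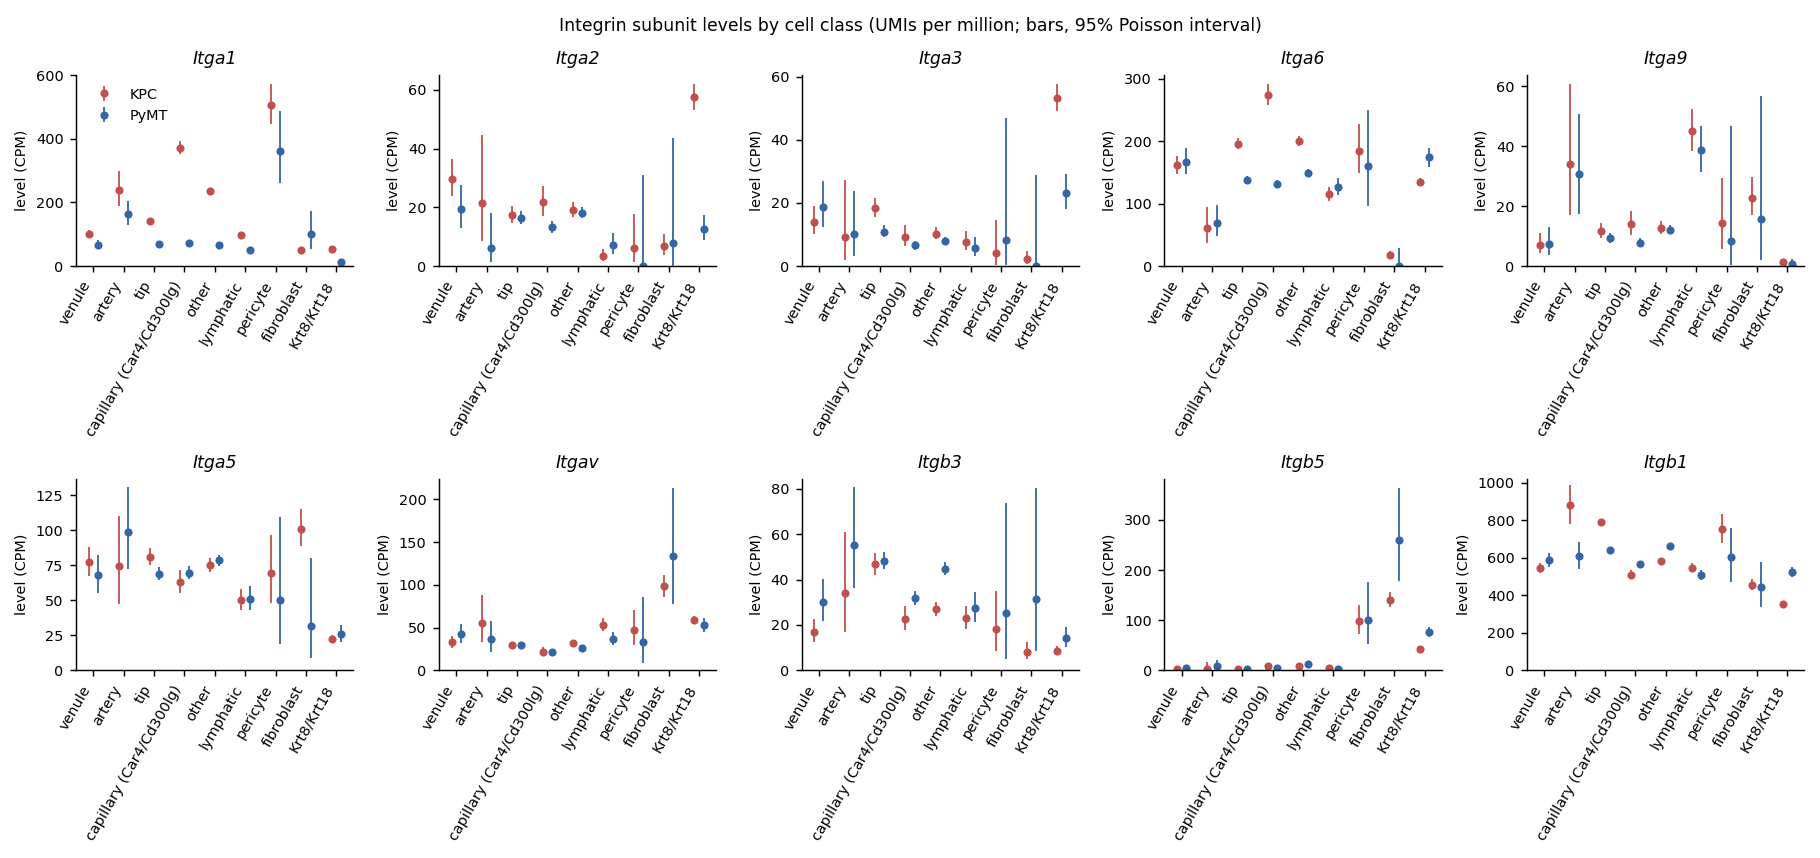
Level of each integrin gene (CPM, linear axes from 0) in 9 cell classes of KPC (red) and PyMT (blue), points being summed UMIs scaled to CPM and bars 95% Poisson intervals for counting error. Itgb5 lies at or below 8.67 CPM in the blood vessel and lymphatic classes, and at 9.40 and 12.3 CPM in cells that met no rule. It lies at or above 42.9 CPM in pericytes, fibroblasts and Krt8/Krt18 cells. Itga1 reaches 373 CPM in KPC capillary cells and 73.4 CPM in PyMT Car4/Cd300lg cells.

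Itga1 and Itga2 encode the alpha chains of the collagen receptors α1β1 and α2β1. They are neighbours on the minus strand of mouse chromosome 13 (GRCm38, chr13:114953096-115101964 for Itga1 and chr13:114833081-114932100 for Itga2), yet their levels were ordered differently across the vessel classes. The 250 bases upstream of each start site, from RefSeq on GRCm38.p6, are shown because the 2 genes adjoin and differed. Capitals mark GGAA or its reverse complement, the core bound by ETS factors, a family with many members in endothelium. The windows lie at chr13:115101965-115102214 and chr13:114932101-114932350, both on the minus strand.
Itga1: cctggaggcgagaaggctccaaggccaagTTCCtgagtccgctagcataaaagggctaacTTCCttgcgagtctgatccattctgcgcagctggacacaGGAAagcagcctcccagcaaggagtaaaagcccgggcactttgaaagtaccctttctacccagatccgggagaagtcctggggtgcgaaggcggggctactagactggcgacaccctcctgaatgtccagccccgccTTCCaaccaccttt
Itga2: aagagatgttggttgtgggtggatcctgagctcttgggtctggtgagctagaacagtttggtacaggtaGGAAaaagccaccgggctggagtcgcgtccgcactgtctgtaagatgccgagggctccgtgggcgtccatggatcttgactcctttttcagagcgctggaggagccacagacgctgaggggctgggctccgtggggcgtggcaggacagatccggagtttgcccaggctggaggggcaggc
The Itga1 window held 4 GGAA cores and the Itga2 window 1, while 93.4% of 32536 promoter windows of this length held at least 1, with a median of 3. The GC box GGGCGG, the TATA box TATAAA, the AP-1 motif TGANTCA and the SOX motif ACAATG were searched like GGAA on both strands, with overlaps between motifs allowed, and were found in neither window. A match is a string of letters and not a measured binding site.

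The level of Itga1 was 373 CPM (95% interval 353 to 393) in KPC capillary cells, 238 (188 to 298) in artery, 140 (132 to 148) in tip and 101 (89.9 to 113) in venule cells. These 4 intervals did not overlap. In PyMT the level of Itga1 was 164 CPM (130 to 204) in artery cells, and 73.4 (68.8 to 78.3), 70.9 (66.4 to 75.6) and 67.3 (54.8 to 81.8) in Car4/Cd300lg, tip and venule cells, which were not apart. Itga1 was thus led by capillary cells in KPC and by artery cells in PyMT, and lowest in venule cells in KPC. Over the capillary class, the log2 ratio of Itga1 in venule cells was -1.88 (-2.07 to -1.70) in KPC and -0.13 (-0.44 to 0.17) in PyMT, where thinning to 2000 UMIs before classing turned it to 0.67. In tip cells the same log2 ratio was -1.41 (-1.52 to -1.30) and -0.05 (-0.18 to 0.08). In artery cells it was -0.65 (-1.0 to -0.31) in KPC and 1.16 (0.81 to 1.49) in PyMT.

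Itga1 was also described along the marker counts that define the capillary and venule classes, so this is not separate support for the ratios above. In cells thinned to 2000 UMIs and binned by Car4 plus Cd300lg UMIs, the level of Itga1 in KPC was 139 CPM (131 to 148) at 0 UMIs, 265 (242 to 288) at 1 to 2 and 485 (404 to 576) at 3 to 5. The last KPC bin, 6 or more UMIs, held only 17 cells, at 618 CPM (382 to 944). In PyMT the corresponding levels of Itga1 were 65.4, 68.1, 84.6 and 41.5 CPM, without a steady order. Along Ackr1 plus Selp UMIs, the level of Itga1 in KPC fell from 185 CPM (176 to 195) at 0 to 64.5 CPM (36.9 to 105) at 6 or more, while in PyMT it was 66.4 (62.7 to 70.2) and 95.7 (43.8 to 182) CPM. At that equal depth, 42.0% of KPC capillary cells (38.0 to 46.1, exact binomial; 251 of 597) and 12.9% of PyMT Car4/Cd300lg cells (11.6 to 14.3; 305 of 2367) had an Itga1 UMI, against 56.9% and 27.4% of all cells in these classes before thinning. In Krt8/Krt18 cells of KPC, where the gene was low, the thinned share was 10.2% (8.13 to 12.5) and the unthinned share 45.8%. Thinning left out 700 of the 1297 KPC capillary cells.

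Pericytes held the highest Itga1 levels, 507 CPM (446 to 574) and 361 CPM (262 to 487). Over the 4 blood vessel classes together this was a log2 ratio of 1.42 (1.23 to 1.61) in KPC and 2.30 (1.83 to 2.73) in PyMT. In the 90 KPC pericytes that met no other rule the level of Itga1 was 533 CPM (456 to 618). Endothelial RNA in those 90 cells was not measured on its own. In PyMT, 16 of the 27 pericytes also met another rule. PyMT pericytes carried 10941 CPM of capillary markers, more than any PyMT blood vessel class. Summed pericyte markers were 113 CPM in KPC capillary, 77.3 in artery, 67.2 in tip and 21.9 in venule cells, and 65.2, 45.1, 63.8 and 36.0 CPM in PyMT. The KPC order of those markers matches that of Itga1, and their part in the Itga1 differences was not tested. Pelo and Gm49395 overlap Itga1 on the same strand and Gm10734 on the other, and they were counted apart with 268 UMIs in all in KPC and 313 in PyMT.

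The level of Itga2 was highest among blood vessel classes in venule cells, at 29.7 CPM (23.8 to 36.6) and 19.3 CPM (12.9 to 27.8). Capillary cells stood at 21.8 (17.2 to 27.2) and 13.3 (11.4 to 15.5), and tip cells at 17.5 (14.8 to 20.5) and 16.4 (14.3 to 18.8) CPM. Neighbouring classes in this order overlapped in both tumors, and the log2 ratio of venule over capillary cells, 0.45 (-0.01 to 0.91) and 0.54 (-0.08 to 1.11), was under 1.5-fold. Thinning to 2000 UMIs before classing raised it past 1.5-fold, to 1.16 and 1.36. In lymphatic cells the level of Itga2 was 3.39 CPM (1.75 to 5.93) and 7.12 CPM (4.29 to 11.1), a log2 ratio over the blood vessel classes of -2.62 (-3.59 to -1.80) and -1.07 (-1.82 to -0.41). Along Ackr1 plus Selp UMIs the KPC level of Itga2 was 18.1 CPM (15.3 to 21.3) at 0, 25.0 (16.6 to 36.1) at 1 to 2, 31.4 (15.7 to 56.2) at 3 to 5 and 44.4 (22.1 to 79.4) at 6 or more. In these bins Itga2 moved opposite to Itga1 in KPC, and in PyMT the last bin held 3 UMIs of Itga2.

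Itga3 and Itga6 encode alpha chains of laminin receptors, and α6 pairs with either β1 or β4. The level of Itga6 in KPC was 275 CPM (258 to 292) in capillary, 196 (187 to 206) in tip, 162 (147 to 177) in venule and 61.8 (37.8 to 95.5) in artery cells, with no overlap between them. In PyMT it was 167 CPM (147 to 189) in venule, 138 (132 to 145) in tip, 131 (125 to 138) in Car4/Cd300lg and 69.7 (48.3 to 97.4) in artery cells. Artery cells were lowest in both tumors, with a log2 ratio of Itga6 over the capillary class of -2.15 (-2.87 to -1.52) and -0.91 (-1.45 to -0.42). Venule over capillary cells went opposite ways, -0.77 (-0.93 to -0.61) in KPC and 0.35 (0.15 to 0.54) in PyMT. Many PyMT venule cells (189 of 360) also met a later rule, and without barcodes meeting several rules the PyMT ratio was 0.47. Along Car4 plus Cd300lg UMIs the level of Itga6 in KPC was 179 CPM (169 to 188), 234 (213 to 256) and 394 (322 to 477) in the first 3 bins, and 118 CPM from 4 UMIs in the 17 cells of the last. In PyMT it was 143 (137 to 150), 141 (131 to 151), 106 (90.9 to 122) and 77.1 (54.8 to 105) CPM, the reverse order. The capillary class is therefore the class in which the 2 libraries differed most in Itga6.

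Itga3 was read at low counts. Its level was 18.4 CPM (15.6 to 21.5) in KPC tip cells against 9.23 CPM (6.35 to 13) in capillary cells, a log2 ratio of 1.0 (0.45 to 1.58). In PyMT the level was 10.9 CPM (9.19 to 12.9) in tip cells and 6.53 CPM (5.20 to 8.10) in Car4/Cd300lg cells, a log2 ratio of 0.74 (0.34 to 1.15). Itga3 was thus higher in tip cells of both tumors. Venule cells stood at 14 CPM (10.0 to 19.0) and 18.7 CPM (12.4 to 27.0), a log2 ratio over the capillary class of 0.60 (-0.10 to 1.31) and 1.51 (0.84 to 2.15). The PyMT value rested on 28 venule UMIs, and thinning to 2000 UMIs before classing turned it to -0.35. Outside the endothelium, KPC Krt8/Krt18 cells had 53.2 CPM of Itga3 (49.0 to 57.7), the highest of all classes, and 23.1 CPM (17.9 to 29.3) in PyMT.

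Itga5 encodes the alpha chain of the fibronectin receptor α5β1 and was the most even of the alpha subunits across blood vessels. Its level ran from 62.9 CPM (55.0 to 71.7) in capillary to 80.9 CPM (75.0 to 87.2) in tip cells of KPC, and from 68.0 CPM (55.4 to 82.5) in venule to 98.4 CPM (72.6 to 131) in artery cells of PyMT. The log2 span from lowest to highest was 0.36 and 0.53, and no ratio of Itga5 over the capillary class reached 1.5-fold in either tumor, although KPC artery cells came to 0.60 with the mean of per-cell CPM. Lymphatic cells had 50.3 CPM (43.2 to 58.3) and 51.0 CPM (42.8 to 60.3) of Itga5, a log2 ratio of -0.59 (-0.83 to -0.36) and -0.45 (-0.71 to -0.20) over the blood vessel classes. KPC fibroblasts had the highest level, 101 CPM (88.7 to 115).

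Itgav encodes αv, a partner of β3 and β5 among others, and its level was 22.1 CPM (17.5 to 27.5) and 21.5 CPM (19.0 to 24.2) in the capillary class. This was below the other blood vessel classes, but the interval overlapped those of tip and venule cells in KPC and that of artery cells in PyMT. Tip cells had 29.5 CPM (25.9 to 33.4) and 29.7 CPM (26.8 to 32.8), a log2 ratio of 0.42 (0.05 to 0.80) and 0.47 (0.24 to 0.69), which was under 1.5-fold but reached 0.72 in KPC with the mean of per-cell CPM and 0.83 in PyMT with thinning. Venule cells had 32.8 CPM (26.6 to 40.0) and 42.0 CPM (32.3 to 53.7), a log2 ratio of 0.57 (0.13 to 1.02) and 0.97 (0.55 to 1.37), past 1.5-fold in PyMT, and in KPC only with alternatives such as doubled class thresholds (1.05). Artery cells reached 55.6 CPM (33.0 to 87.9) and 36.9 CPM (21.9 to 58.3), a log2 ratio of 1.33 (0.51 to 2.09) and 0.78 (0.00 to 1.47) from 18 UMIs in each tumor, which thinning before classing lowered to 0.32 and 0.10. The 3 classes above capillary cells overlapped with one another in both tumors. Fibroblasts had the highest levels of Itgav, 98.2 CPM (86.0 to 112) and 133 CPM (77.8 to 214).

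Itgb3 encodes β3, which forms αvβ3 with αv. Its level in tip cells was 46.7 CPM (42.2 to 51.5) in KPC and 48.3 CPM (44.6 to 52.3) in PyMT, against 22.6 (18.0 to 28.2) and 31.7 (28.7 to 35.0) in the capillary class. The log2 ratio of tip over capillary cells was 1.04 (0.70 to 1.41) and 0.61 (0.43 to 0.79), higher in both tumors. Cells that met no rule had 27.0 CPM (24.0 to 30.2) and 44.7 CPM (41.9 to 47.7), the PyMT interval overlapping that of tip cells. Venule cells had 17.1 CPM (12.7 to 22.5) and 30.0 CPM (21.9 to 40.1), not apart from the capillary class, and artery cells had 34.0 (17.0 to 60.8) and 55.4 (36.5 to 80.6) CPM. Along Apln plus Angpt2 UMIs in thinned cells, the level of Itgb3 was 27.4, 28.1, 38.4 and 58.2 CPM in KPC and 35.1, 45.6, 52.9 and 66.2 CPM in PyMT. Both tumors gave the same order over these bins, and in each the interval of the last bin, 39.0 to 83.6 and 39.2 to 105 CPM, lay above that of the first. Apln and Angpt2 also define the tip class, so the bins are not separate support for the tip ratio.

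Itgb5 encodes β5, another partner of αv. The 250 bases upstream of its start site and of that of Itgb1, the most broadly used beta chain, are shown because Itgb5 was low in endothelial cells while Itgb1 was read in every class. The windows are chr16:33829415-33829664 for Itgb5 and chr8:128685404-128685653 for Itgb1, both on the plus strand of GRCm38.p6 from RefSeq, and capitals again mark GGAA or its reverse complement.
Itgb5: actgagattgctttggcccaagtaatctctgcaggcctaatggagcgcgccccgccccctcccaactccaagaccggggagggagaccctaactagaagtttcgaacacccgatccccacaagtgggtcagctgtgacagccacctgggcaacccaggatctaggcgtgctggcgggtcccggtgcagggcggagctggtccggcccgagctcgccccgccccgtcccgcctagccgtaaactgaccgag
Itgb1: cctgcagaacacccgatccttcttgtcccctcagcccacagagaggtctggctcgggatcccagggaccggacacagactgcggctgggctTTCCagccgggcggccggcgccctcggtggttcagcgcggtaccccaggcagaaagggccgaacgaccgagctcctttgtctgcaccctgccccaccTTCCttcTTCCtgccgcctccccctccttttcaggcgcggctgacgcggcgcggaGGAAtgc
The Itgb5 window held 0 GGAA cores and 3 GGGCGG boxes, the Itgb1 window 4 and 1, and GGGCGG occurred in 33.0% of all windows. TATAAA (in 12.3% of all windows), TGANTCA (6.73%) and ACAATG (10.5%) were absent from both. Of the 10 genes, 8 had an entry in this promoter table. Itga6 and Itgb3 had none.

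The level of Itgb5 was 97.7 CPM (72.0 to 130) in KPC and 101 CPM (52.1 to 176) in PyMT pericytes, 141 (126 to 157) and 259 (178 to 364) in fibroblasts, and 42.9 (39.1 to 47.0) and 75.7 (66.1 to 86.3) in Krt8/Krt18 cells. In the 4 blood vessel classes it lay between 3.07 and 8.67 CPM in KPC and between 2.92 and 8.20 CPM in PyMT, and in lymphatic cells at 3.96 and 2.62 CPM. Cells that met no rule had 9.40 CPM (7.70 to 11.4) and 12.3 CPM (10.9 to 13.9) of Itgb5. The stromal and Krt8/Krt18 intervals thus lay above those of the blood vessel and lymphatic classes and of the cells that met no rule, in both tumors. Over the blood vessel classes, pericytes had 20.8-fold and 27.1-fold more Itgb5, log2 ratios of 4.38 (3.82 to 4.92) and 4.76 (3.76 to 5.63). At 2000 UMIs per cell, 16.0% of KPC pericytes (9.22 to 25.0; 15 of 94) and 8.0% of PyMT pericytes (0.984 to 26.0; 2 of 25) had an Itgb5 UMI, against 0.634% to 2.01% of blood vessel cells. Without thinning these shares were 27.7% and 33.3% in pericytes and 0.952% to 3.17% in blood vessel classes. At such shares, endothelial Itgb5 cannot be told apart from free RNA of the other cells. In 90 KPC pericytes meeting no other rule the level of Itgb5 was 117 CPM (82.8 to 161), and in the 11 of PyMT it was 97.7 CPM (26.6 to 250) from 4 UMIs. Fibroblast markers in pericytes were 24.4 and 16.8 CPM, against 4947 and 4633 CPM in fibroblasts.

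**Figure D2:**
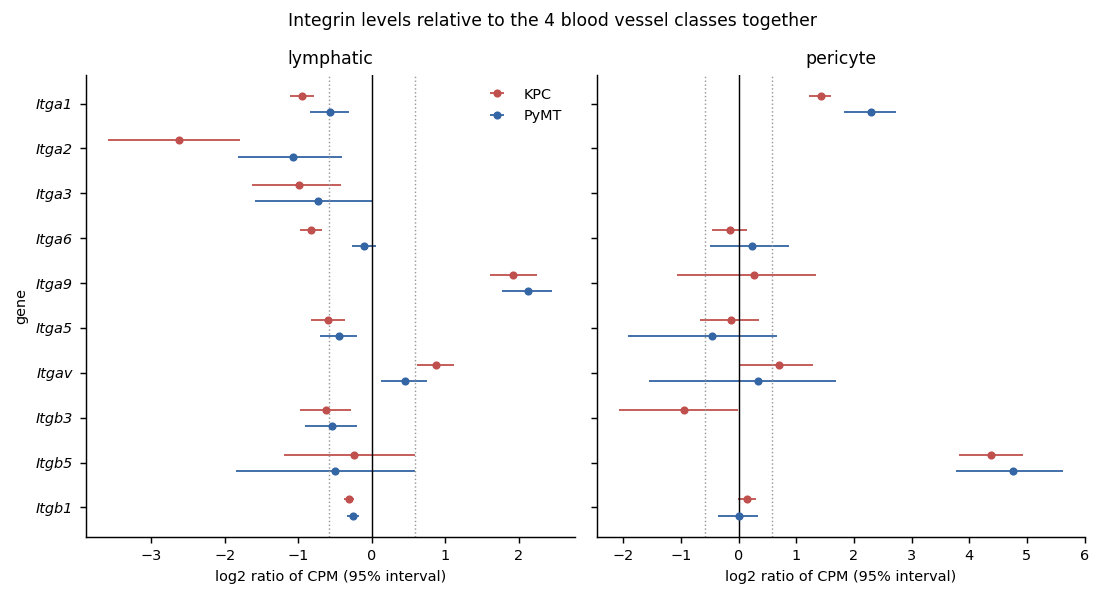
Log2 ratio of CPM (x axis) of each integrin gene (y axis) in lymphatic cells and pericytes over the 4 blood vessel classes together, KPC in red and PyMT in blue, with exact 95% intervals for counting error and dotted lines at 1.5-fold. A ratio with 3 or fewer UMIs in the lymphatic or pericyte class is not drawn. Itga9 in lymphatic cells (1.93 and 2.12) and Itgb5 in pericytes (4.38 and 4.76) stand to the right of all other genes of their panel.

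Itga9 encodes the alpha chain of α9β1, a receptor for tenascin, the fibronectin EDA domain and VEGF-C that is needed for the valves of lymphatic vessels. Its level was 45.0 CPM (38.2 to 52.5) and 38.6 CPM (31.5 to 46.8) in lymphatic cells against 11.8 and 8.88 CPM in the blood vessel classes together, a log2 ratio of 1.93 (1.61 to 2.24) and 2.12 (1.77 to 2.46). Lymphatic cells that met no other rule had 50.9 CPM (41.2 to 62.3; 529 cells) and 42.3 CPM (33.1 to 53.3; 464 cells), and those that also met another rule 38.3 and 32.0 CPM. Among blood vessels, artery cells had the highest level, 34.0 CPM (17.0 to 60.8; 11 UMIs) and 30.8 CPM (17.2 to 50.7; 15 UMIs), a log2 ratio over the capillary class of 1.28 (0.19 to 2.24) and 1.98 (1.09 to 2.77). In KPC the artery interval overlapped that of capillary cells, and thinning before classing lowered the ratio to 0.21. Venule cells had 7.17 CPM (4.44 to 11) and 7.33 CPM (3.66 to 13.1). Lymphatic and artery cells thus had the highest levels in both tumors, and their intervals overlapped each other. Fibroblasts came next, at 22.9 CPM (17.2 to 29.8) and 15.7 CPM (1.90 to 56.7; 2 UMIs), and overlapped artery cells in both tumors. The gene Gm2415 overlaps Itga9 on the opposite strand and had 29 and 12 UMIs. The sort had depleted podoplanin-bearing cells, and the lymphatic class carried 16214 and 13023 CPM of lymphatic markers.

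Itgb1 encodes β1, which the α1, α2, α3, α5, α6 and α9 chains all use. Its level in KPC was 881 CPM (782 to 990) in artery and 790 (771 to 809) in tip cells, against 548 (522 to 576) in venule and 511 (488 to 535) in capillary cells. In PyMT it was 644 CPM (631 to 658) in tip, 611 (544 to 685) in artery, 588 (550 to 628) in venule and 567 (554 to 581) in Car4/Cd300lg cells. Tip over capillary cells gave a log2 ratio of Itgb1 of 0.63 (0.55 to 0.70) in KPC and 0.18 (0.14 to 0.23) in PyMT. Artery over capillary cells gave 0.78 (0.60 to 0.97) and 0.11 (-0.06 to 0.27). The direction was shared for tip cells, while the PyMT artery interval held 0, and only KPC passed 1.5-fold. Cells that met no rule had 584 CPM (570 to 598) and 661 CPM (650 to 672) of Itgb1. Tip cells lay above that level in KPC, while in PyMT the intervals overlapped. Along Apln plus Angpt2 UMIs the level of Itgb1 was 573 CPM (554 to 593), 671 (639 to 703), 834 (772 to 900) and 1072 (983 to 1167) in KPC. In PyMT it was 625 (611 to 639), 651 (629 to 672), 691 (645 to 739) and 952 (840 to 1076). Itgb1 increased over all 4 bins in both tumors, and the last bin stood apart from the first by more than counting error. These bins use the markers of the tip class and restate its ratio in finer steps.

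**Figure D3:**
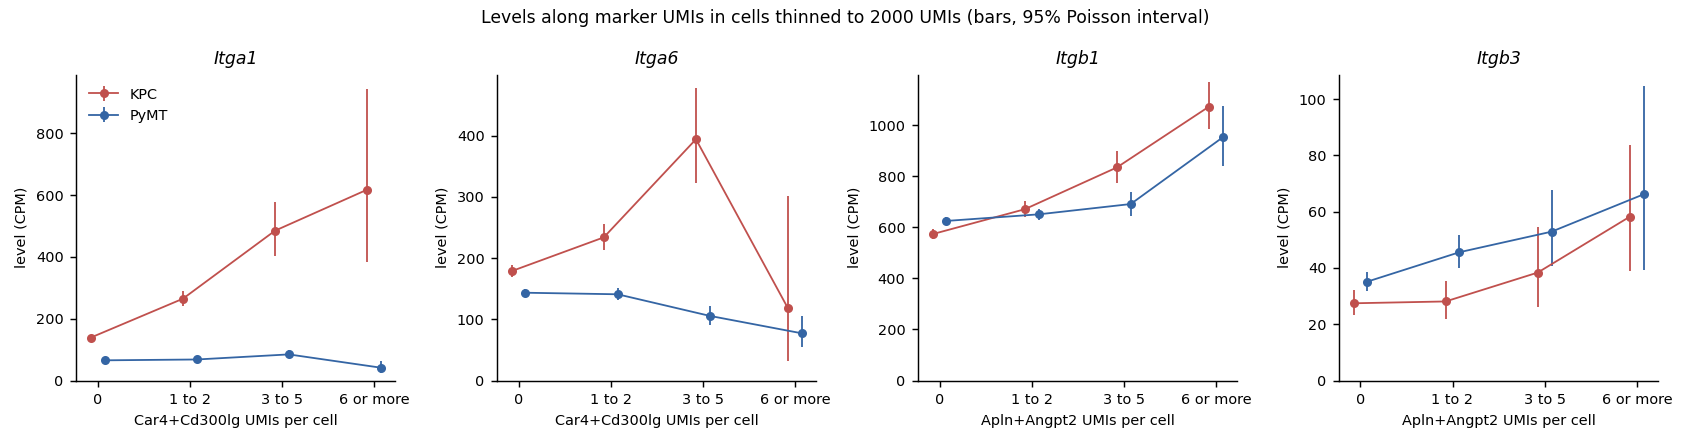
Levels (CPM, linear axes from 0) of Itga1 and Itga6 by Car4 plus Cd300lg UMIs per cell, and of Itgb1 and Itgb3 by Apln plus Angpt2 UMIs per cell, in KPC (red) and PyMT (blue) cells thinned to 2000 UMIs, with 95% Poisson intervals. Itga1 goes from 139 to 485 CPM over the first 3 KPC bins but stays at or below 84.6 CPM in PyMT, whereas Itgb1 and Itgb3 increase in both tumors; the last KPC bin of the Car4 panels holds 17 cells.

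Taking the integrins as a group, venule over capillary cells had 1 of 9 members tested higher in KPC (all genes 6.67%) and 3 lower (12.7%), the lower ones Itga1, Itga6 and Itga9 and the higher one Itga3, whose interval held 0. In PyMT 2 of 10 were higher (10.5%), Itga3 and Itgav, and 0 lower (7.47%). Artery over capillary cells had 4 of 8 members higher in KPC (12.3%) and 2 lower (20.0%). In PyMT 6 of 10 were higher (17.3%) and 2 lower (19.8%). The integrins higher in artery cells of both tumors were Itga9, Itgav and Itgb3, and Itga6 was lower in both. The interval held 0 for Itgb3 in KPC and for Itga2, Itga3 and Itgb5 in PyMT. Those PyMT ratios of Itga2, Itga3 and Itgb5 rest on 3, 5 and 4 artery UMIs, and the free RNA limit given above applies to Itgb5. Each of the 4 genes shared by both tumors fell under 1.5-fold in at least 1 alternative: Itga9 in KPC and Itgav in both with thinning, as given above, Itga6 in PyMT with thinning (-0.56), and Itgb3 in both when barcodes needed 1000 genes and less than 5% of UMIs from mitochondria (0.21 and 0.56). The median log2 ratio of the members tested was 0.41 and 0.72, beside -0.05 and -0.02 over all genes tested, and it was the largest of the 3 comparisons with capillary cells. Tip over capillary cells had 3 of 10 higher in KPC (8.49%), namely Itga3, Itgb1 and Itgb3, and 2 lower (15.8%), Itga1 and Itgb5. Endothelial Itgb5 cannot be told apart from free RNA of other cells, as given above. In PyMT 2 of 10 were higher (2.32%), Itga3 and Itgb3, and 0 lower (3.91%). That stricter barcode filter took Itgb1 in KPC (0.57) and Itgb3 in PyMT (0.58) just under 1.5-fold. The comparisons share the capillary class, so they are not independent of one another. In PyMT, 797 of the 1991 tip cells also met the capillary rule, against 184 of 1302 in KPC.

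**Figure D4:**
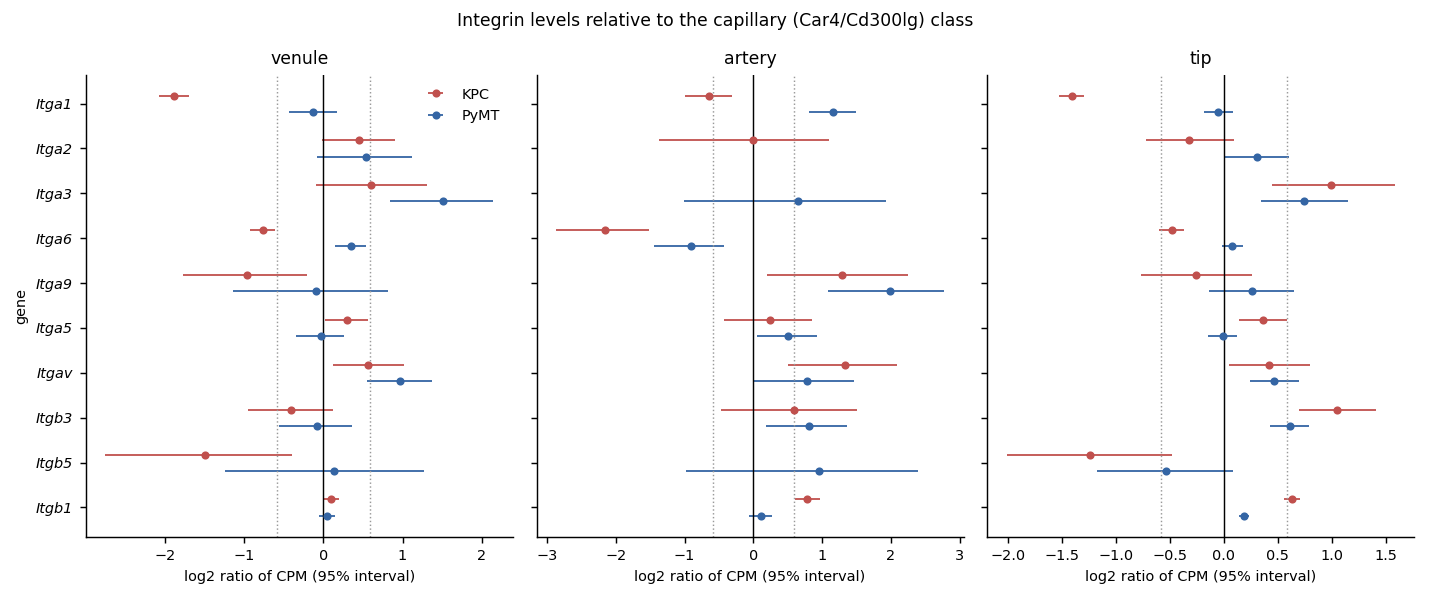
Log2 ratio of CPM (x axis) of each integrin gene (y axis) in venule, artery and tip cells over the capillary class, in KPC (red) and PyMT (blue), with exact 95% intervals for counting error and dotted lines at 1.5-fold. A ratio with 3 or fewer UMIs in the venule, artery or tip class is not drawn. Itga1 lies at -1.88 and -1.41 in KPC venule and tip cells and near 0 in PyMT, Itga6 is below 0 in artery cells of both tumors, and Itga3 and Itgb3 are above 0 in tip cells of both.

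Lymphatic cells over the blood vessel classes had 2 of 10 integrins higher in KPC (16.0% of all genes), Itga9 and Itgav, and 6 lower (14.8%). In PyMT 1 of 10 was higher (19.0%), Itga9, and 2 were lower (11.7%), Itga2 and Itga3, the interval of Itga3 holding 0. The log2 ratio of Itgav was 0.87 (0.62 to 1.12) in KPC and 0.44 (0.12 to 0.75) in PyMT. The 4 further genes lower in KPC were Itga1, Itga5, Itga6 and Itgb3, with log2 ratios of -0.96, -0.59, -0.83 and -0.62 that in PyMT were -0.57, -0.45, -0.10 and -0.54. In KPC, Itga1 came to -0.55 with doubled thresholds, and Itga5 and Itgb3 to -0.46 and -0.25 with the mean of per-cell CPM, all under 1.5-fold. The median of the 10 members was -0.60 and -0.48, beside 0.04 and 0.07 over all genes.

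Between the tumors, the capillary class had 0 of 10 integrins lower (9.53% of all genes) and 5 higher in KPC (21.6%): Itga1 by a log2 ratio of 2.34 (2.22 to 2.47), Itga6 by 1.07 (0.95 to 1.18), Itgb5 by 1.03 (0.34 to 1.69), Itga9 by 0.84 (0.32 to 1.35) and Itga2 by 0.71 (0.31 to 1.11). The Itgb5 ratio rests on 31 and 54 UMIs, which cannot be told apart from free RNA of other cells, as given above. The tip class had 2 of 10 higher in KPC (9.91%), Itga1 by 0.98 (0.86 to 1.11) and Itga3 by 0.75 (0.42 to 1.09), and 0 lower (4.65%). The venule class had 2 of 8 higher (8.57%), Itga1 and Itga2, the interval of Itga2 holding 0, and 1 lower (3.96%), Itgb3 with a log2 ratio of -0.81 (-1.42 to -0.20). The lymphatic class had 1 of 7 higher (6.12%), Itga1, and 0 lower (3.9%), and the artery class 0 of 4 higher (13.6%) and 0 lower (7.38%). The log2 ratio of Itga1 in KPC over PyMT was 0.59 (0.26 to 0.93) in venule, 0.98 (0.69 to 1.28) in lymphatic and 0.54 (0.07 to 1.01) in artery cells, the last under 1.5-fold. These intervals lay above 0 in the 4 blood vessel classes and the lymphatic class. The ratio was largest in the capillary class, KPC capillary over PyMT Car4/Cd300lg cells. Itga1 was also higher in KPC in Krt8/Krt18 cells, 53.0 (48.8 to 57.5) against 12.6 CPM (8.85 to 17.3). In cells that met no rule it was 236 against 66.7 CPM. Pericytes had 507 against 361 CPM and fibroblasts 51.2 against 102 CPM, both with overlapping intervals. The tumor model, the organ, the digestion, the library and the depth of the cells cannot be told apart in this comparison. The capillary classes and the Krt8/Krt18 classes also differed in their markers between the tumors, as given above.

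The genes whose pattern over 8 classes of both tumors (16 points, centred within each tumor) was most like a given integrin are described by Pearson's r, among 9461 genes. For Itga1 these were Dab2ip (0.943), Itpr2 (0.923) and Tom1l2 (0.922), and for Itga6 Ptprk (0.968), Exoc7 (0.966) and Cln3 (0.960). For Itgb5 they were Chpf (0.961) and the collagen VI genes Col6a2 (0.959) and Col6a1 (0.953), and for Itgb1 Ube2n (0.878), the tip marker Cxcr4 (0.873) and the actin crosslinker Actn4 (0.869). The gene most like Itga2 was Brix1 (0.909), that most like Itga3 Slc4a7 (0.927), like Itga5 Gosr2 (0.896), like Itga9 Ecm2 (0.921), like Itgav Irf2bp2 (0.914) and like Itgb3 Clca2 (0.912). Of the pairs of integrins, Itga3 with Itga6 (0.755), Itgb1 with Itgb3 (0.723) and Itgav with Itgb5 (0.665) had the highest r, and Itga6 with Itgav the lowest (-0.829). The 16 points share 2 libraries and differ in depth and number of cells, and the highest of 9461 r values is high by selection. Over these genes the 95th percentile of r ran from 0.564 for Itgb5 to 0.834 for Itga6. Itga3 and Itga6 had 0 UMIs in the 28 PyMT fibroblasts, the class in which Itgav was highest (133 CPM). The weight of that point in the r values was not tested.

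Among the other 16 integrin subunits, only Itgb4 and Itga2b had 50 UMIs in tip and capillary cells together, and both were lower in tip cells of both tumors. Itgb4, the partner of α6 in hemidesmosomes, had log2 ratios of -1.32 (-1.89 to -0.76) and -0.81 (-1.43 to -0.21). Its level was highest among vessels in artery cells, 92.7 (62.6 to 132) and 41.0 CPM (25.1 to 63.3), the class in which Itga6 was lowest. Venule cells followed at 37.2 (30.6 to 44.9) and 27.3 CPM (19.6 to 37.1), and in PyMT the artery and venule intervals overlapped. Itga2b, best known from platelets, had log2 ratios of -0.72 (-1.38 to -0.04) and -0.68 (-1.07 to -0.29). The leukocyte subunits were near absent from the vessels: Itgb2 had 3 and 1 UMIs in tip and 1 and 2 in capillary cells.

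The matrix ligands that integrins bind had 5 of 18 genes higher (8.49% of all genes) and 2 lower (15.8%) in KPC tip over capillary cells. In PyMT 5 of 19 were higher (2.32%) and 0 lower (3.91%), and 4 were higher in both tumors. Ctgf, a matricellular protein, had log2 ratios of 2.65 (2.27 to 3.06) and 1.71 (1.41 to 2.01), and fibronectin (Fn1) of 1.42 (1.18 to 1.67) and 0.70 (0.63 to 0.78). Tenascin C (Tnc) had 0.79 (-0.23 to 1.95) and 1.06 (0.69 to 1.45). Of the adhesion adaptors and kinases, 3 of 19 were higher and 1 lower in KPC, and 0 of 20 higher and 2 lower in PyMT. Lims2, a partner of integrin-linked kinase, was lower in both, by log2 ratios of -2.01 (-2.20 to -1.82) and -1.33 (-1.58 to -1.08). Of 7 tetraspanins and lateral partners, 2 were higher and 1 lower in KPC and none passed 1.5-fold in PyMT. The counts of adaptors and of tetraspanins stand against the same shares of all genes as the ligands, and Lamb1 and Nid2 of the ligand list are also tip markers.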

How the data were processed

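Single-cell libraries of sorted tumor endothelial cells were prepared by the authors on the 10x platform and deposited as raw UMI counts per gene and barcode (mm10; Cell Ranger 3.0 in the submitters' notes, 3.0.2 in the matrix header). The sort depleted cells bearing CD45, EpCAM, Ter119, podoplanin or Annexin V. Neither cluster labels nor the authors' normalized values were used here. The KPC library held 10236 barcodes and 44441942 UMIs, the PyMT library 12464 barcodes and 55547926 UMIs.

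Kept barcodes had 500 genes or more and less than 10% of UMIs from mitochondria, and they were classed in a fixed order by summed UMIs of 2 genes each. The rules were Krt8 and Krt18 (5), Col1a1 and Col1a2 (10), Mmrn1 and Prox1 (3), Notch3 and Higd1b (2), Ackr1 and Selp (3), Gja5 and Sema3g (2), Apln and Angpt2 (3), then Car4 and Cd300lg (2), the least sum in parentheses. Counts were summed per class and divided by the class total (CPM). Levels have exact 95% Poisson intervals, ratios exact conditional intervals and shares exact Clopper-Pearson intervals, all for counting error only. With 1 library per tumor no test was possible, so no p-value is given. No doublet caller was run. Alternatives without barcodes meeting several rules, and without the deepest 8%, were run instead. Bins used cells thinned to 2000 UMIs with a fixed seed, and their markers are those of the class rule. Cells that met the Krt8/Krt18, fibroblast, lymphatic or pericyte rule after thinning were left out of the bins. Gene positions came from GENCODE M21 on GRCm38. All integrins were described, and of each further list up to 3 genes per direction with the largest tip over capillary ratio past 1.5-fold in both tumors were named, with a few other subunits named after their values were seen. The members and lists were chosen with earlier results of these data known. The ratio and count steps were tested on simulated data. Python 3.11.15, numpy 2.4.6, scipy 1.17.1 and pandas 2.3.3 were used.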

Additional observations from a re-analysis of the deposited data

Results flagged for a closer look

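A pair of integrins had ratios between the same 2 classes that went opposite ways in the 2 tumors. The log2 ratio of Itga6 in venule over capillary cells was -0.77 in KPC and 0.35 in PyMT, and that of Itga1 in artery over capillary cells was -0.65 in KPC and 1.16 in PyMT. Each rests on 1 library per tumor, and the difference was not tested. Both use the capillary class, whose markers and depth differed between the tumors. In PyMT, 189 of the 360 venule cells also met a later rule, against 142 of 640 in KPC.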

How the results depend on the processing

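Of 845 alternative values for 77 integrin ratios, 32 had another sign than the value reported, over 15 ratios, 13 of them under 1.5-fold as reported. The other two were Itga3 in PyMT venule over capillary cells, -0.35 after thinning to 2000 UMIs before classing, and Itga2 in PyMT artery over capillary cells, 0.26 with doubled class thresholds. Of 38 ratios past 1.5-fold, 21 kept their direction and 1.5-fold in every alternative. The number of integrins past 1.5-fold in either direction is given here with the share of all genes that passed. It was 4 (19.4%) for venule, 6 (32.2%) for artery, 5 (24.3%) for tip and 8 (30.8%) for lymphatic cells in KPC, and 2 (17.9%), 8 (37.1%), 2 (6.23%) and 3 (30.7%) in PyMT. At 2-fold it was 1 (7.24%), 3 (15.0%), 3 (8.88%) and 2 (16.3%) in KPC, and 1 (6.30%), 3 (18.3%) and 0 (1.43%) for venule, artery and tip in PyMT. Thinning gave 2 (24.6%), 3 (37.3%) and 3 (27.8%) for KPC venule, artery and tip, and 2 (48.6%) and 5 (36.6%) for PyMT artery and lymphatic. Doubled thresholds gave 3 (40.8%) for KPC artery and 6 (35.4%) for PyMT lymphatic. At least 1000 genes with under 5% mitochondrial UMIs gave 3 (32.1%) for KPC artery, and 5 (39.9%) and 1 (5.61%) for PyMT artery and tip. PyMT lymphatic became 7 (32.9%) without barcodes meeting several rules, 6 (34.0%) without cycling barcodes, 6 (34.8%) with per-cell CPM and 5 (29.9%) with median of ratios scaling. PyMT tip became 4 (7.43%) without cycling barcodes and 4 (6.69%) without the deepest 8%. The cause was not tested, and thinning leaves fewer cells and UMIs. Leaving out barcodes found in both libraries, and the bins of Car4 plus Cd300lg and of Gja5 plus Sema3g, were chosen after seeing the data. No paired analysis was possible because each tumor had 1 library. Artery values rest on 105 and 126 cells and PyMT pericytes on 27.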

Other observations

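Genes for known ligands of α9β1 were also high in the lymphatic class, in which Itga9 was highest. The level of Tnc was 69.8 CPM in KPC and 79.1 CPM in PyMT lymphatic cells, against 3.72 and 10.2 CPM in the blood vessel classes, log2 ratios of 4.23 and 2.96. Spp1 (osteopontin) had log2 ratios of 2.09 and 1.28, Emilin1 of 1.38 and 1.18, and Fn1 of 3.17 and 2.23. Fibroblast markers were 196 and 381 CPM in lymphatic cells, and their part in these levels was not tested. Of 19 matrix ligands tested, 6 were higher (16.0% of all genes) and 7 lower (14.8%) in KPC lymphatic cells, and 7 higher (19.0%) and 6 lower (11.7%) in PyMT. The genes named here were chosen after their values were seen.

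Outside the endothelium, Itga7, the laminin-binding α7 chain, reached 85.5 CPM (61.6 to 116) from 42 UMIs in KPC pericytes. In the 27 PyMT pericytes it stood at 8.40 CPM (0.213 to 46.8) from 1 UMI. Itgb6, the epithelial partner of αv, had 72 UMIs (6.62 CPM) in KPC Krt8/Krt18 cells, but 0 UMIs (0 to 1.25 CPM) in those of PyMT.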
